A study of Arabidopsis thaliana with 6 samples.

Results

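The 9 genes described here encode enzymes that make the wax of the plant cuticle in *Arabidopsis thaliana*. They were taken by locus from the deposited count table as a set of well-studied wax synthesis genes, chosen with earlier results of these data known. Of the 19616 genes in the table, these are LACS2 (AT1G49430), KCS1 (AT1G01120), KCS6 (AT1G68530), CER10 (AT3G55360), CER2 (AT4G24510), CER1 (AT1G02205), CER3 (AT5G57800), CER4 (AT4G33790) and WSD1 (AT5G37300). All 9 were in the table and all 9 were among the 19615 genes tested. The table keeps genes whose depth-scaled count (CPM) reached 1 in no fewer than 2 libraries. WSD1 reached that level in all 3 treated libraries but in only 1 mock library, so it would not have entered the table on its mock libraries alone, whereas the other 8 genes reached it in all 6 libraries.

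The study asked how a plant-associated bacterium changes the transcriptome of its host. Wild type Col-0 seedlings grown on plates were moved to a soil mix that held vermiculite and received an inoculum 1 day later. The treated group received *Priestia megaterium* YC4-R4 suspended in 0.45% NaCl, and the mock group received the same volume of that carrier without bacteria, so both groups were exposed to the salt solution. Both groups were 13 days after germination and 7 days after treatment (DAT) at harvest, with 3 RNA-Seq libraries in each. Roots and shoots were ground together, so every value is a level in the whole seedling, and fewer cells of a type cannot be told apart from less RNA per cell. The libraries held between 10804936 and 21904205 counts, with mock libraries 1 and 2 the shallowest, and libraries of the same group ranked genes more alike (Spearman correlation 0.992 to 0.9961) than libraries of different groups (0.9856 to 0.9909).

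Cuticular wax is made in epidermal cells and coats the aerial surface, where it limits water loss. Fatty acids that leave the plastid are activated to coenzyme A esters by long-chain acyl-CoA synthetases, and a complex at the endoplasmic reticulum then lengthens them in cycles that start with a ketoacyl-CoA synthase (KCS). The resulting very-long-chain acyl-CoAs enter an alkane branch, which gives aldehydes, alkanes and their derivatives, or an alcohol branch, which gives primary alcohols and wax esters. In leaves of Arabidopsis, alkanes are the main wax products.

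In the seedlings treated with *P. megaterium*, transcripts of 4 of the 9 genes rose by the edgeR quasi-likelihood test with the p adjusted over all genes (Benjamini-Hochberg, limit 0.05). These were WSD1 (2.56-fold), CER1 (1.40-fold), CER3 (1.26-fold) and LACS2 (1.24-fold), and the same test called 5.10% of all genes tested higher. None of the 9 genes was called lower, against 4.52% of all genes tested, and 0 were called lower in every other test run. At an unadjusted p under 0.05, 0 were lower, against 2202 of all 19615 genes tested. When a fold change of at least 1.5 was required as well, WSD1 was the 1 gene called higher, against 1.73% of all genes, and 0 were lower, against 1.54%. Every treated library lay above every mock library for 6 of the 9 genes, WSD1 among them, an arrangement seen in 14.5% of all genes tested. The median log2 fold change of the 9 genes was 0.31, and that of all genes tested was -0.0049. These genes and the lists below were chosen with earlier results of these data known, so their counts describe them and do not test them. WSD1 entered the table through its treated libraries, where it was high, so its call is set aside in reading these counts. Among the other 8 genes, 3 rose at the adjusted p and 0 passed both limits by the quasi-likelihood test, with a median log2 fold change of 0.27, while edgeR's exact and likelihood ratio tests passed 1 of them, CER4, by both limits.

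**Figure D1:**
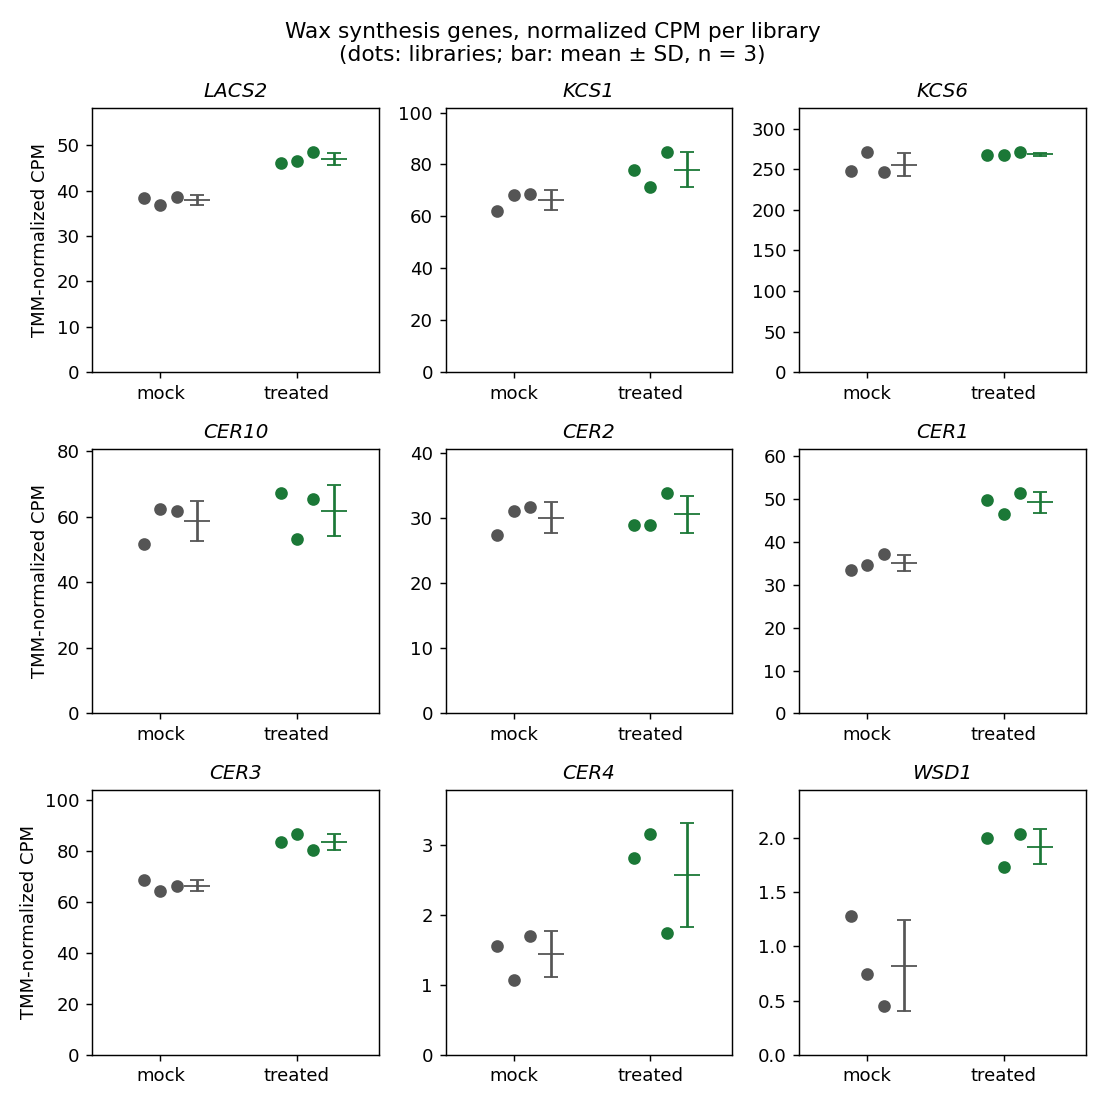
Normalized CPM (vertical axes, from 0, with a scale of its own for each gene) of the 9 wax synthesis genes in each mock and each treated library, with the mean and SD (n = 3) beside the dots. The groups are apart for LACS2, KCS1, CER1, CER3, CER4 and WSD1, and overlap for KCS6, CER10 and CER2.

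The 250 bases before the annotated start of the 4 genes that rose, and of KCS6 as the most abundant gene that did not pass the test, are shown because the genes belong to 1 pathway and differed in their change. The sequences and coordinates are those of the RefSeq assembly TAIR10.1, read 5′ to 3′ on the strand of the gene. Capitals mark matches, on either strand, to 4 short motifs: TAACTA or TAACTG, a core bound by MYB factors of the MYB96 type, ACGTG, the core of abscisic acid response elements, GCCGCC, the GCC box, and TAAATGC or TAAATGT, the first letters of the L1 box of epidermal genes.
LACS2 (chr1:18290692-18290941, plus strand): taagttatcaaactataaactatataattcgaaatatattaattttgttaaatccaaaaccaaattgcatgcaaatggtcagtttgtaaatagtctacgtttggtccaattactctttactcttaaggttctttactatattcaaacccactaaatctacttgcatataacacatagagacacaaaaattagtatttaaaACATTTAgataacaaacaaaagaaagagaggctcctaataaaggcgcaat
KCS6 (chr1:25715025-25715274, minus strand): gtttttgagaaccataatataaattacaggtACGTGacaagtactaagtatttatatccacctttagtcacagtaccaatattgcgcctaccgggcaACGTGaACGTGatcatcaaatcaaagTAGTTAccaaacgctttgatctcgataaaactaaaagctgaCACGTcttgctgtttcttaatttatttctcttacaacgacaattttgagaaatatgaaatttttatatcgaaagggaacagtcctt
CER1 (chr1:418166-418415, plus strand): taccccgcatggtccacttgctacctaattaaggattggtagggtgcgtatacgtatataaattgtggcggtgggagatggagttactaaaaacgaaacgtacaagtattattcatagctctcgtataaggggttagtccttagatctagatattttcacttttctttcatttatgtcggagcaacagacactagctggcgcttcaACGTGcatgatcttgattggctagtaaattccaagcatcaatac
CER3 (chr5:23419934-23420183, plus strand): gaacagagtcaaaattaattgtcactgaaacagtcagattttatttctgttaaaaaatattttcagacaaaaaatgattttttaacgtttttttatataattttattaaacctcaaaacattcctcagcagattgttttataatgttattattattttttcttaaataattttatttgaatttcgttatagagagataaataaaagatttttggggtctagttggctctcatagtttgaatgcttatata
WSD1 (chr5:14767176-14767425, plus strand): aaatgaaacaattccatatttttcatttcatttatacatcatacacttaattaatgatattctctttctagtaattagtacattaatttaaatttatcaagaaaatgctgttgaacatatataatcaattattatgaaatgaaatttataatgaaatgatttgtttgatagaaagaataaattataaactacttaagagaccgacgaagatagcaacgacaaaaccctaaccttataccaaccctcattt

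KCS6 held the ACGTG core at 4 places, which start 219, 153, 147 and 86 bases before the annotated start, and a MYB96-type core at 127 bases. CER1 held 1 ACGTG core, at 44 bases, and LACS2 held the first letters of an L1 box, at 50 bases. WSD1 and CER3 held none of these letters, and neither did KCS1 and CER10. Of the other 2 genes, neither of which passed the test, CER2 held a MYB96-type core at 250 bases and ACGTG at 58 bases, in a window that overlaps the gene AT4G24500, and CER4 held ACGTG at 183 bases. Of the 27443 promoters of this length in the annotation, 26.9% held a MYB96-type core, 22.9% held ACGTG, 12.6% held the first letters of the L1 box and 1.87% held the GCC box. A match is a stretch of letters and not a site shown to be bound.

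LACS2 (chr1:18290942-18295905, plus strand), a long-chain acyl-CoA synthetase that activates fatty acids for cutin and wax, stood at 38.4, 36.8 and 38.7 normalized CPM in the mock libraries and at 46.1, 46.4 and 48.6 in the treated libraries. The lowest treated library lay above the highest mock library. The mean rose from 37.9 ± 1.02 to 47.0 ± 1.36 (SD, n = 3), a log2 fold change of 0.31 with a standard error of 0.07 (edgeR, adjusted p = 0.0128). Its adjusted p lay between 0.0513 and 0.065 without mock library 2, mock library 3 or treated library 3, so the call rests on each of them.

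Among the elongation genes, the groups of KCS1 were apart but no member passed the adjusted p. KCS1 (chr1:57164-59215, minus strand), a condensing enzyme of broad chain-length range, stood at 62.0, 68.4 and 68.5 normalized CPM in the mock libraries and at 78.0, 71.2 and 84.9 in the treated libraries. Its mean was 66.3 ± 3.73 and 78.0 ± 6.85 (SD, n = 3), a log2 fold change of 0.24 (SE 0.08, edgeR adjusted p = 0.0924). Without treated library 2, which was the lowest of its group, the adjusted p was 0.0306.

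KCS6 (chr1:25712414-25715024, minus strand), also named CER6, is the main condensing enzyme for the longest wax chains in shoots. It stood at 247.9, 271.9 and 247.2 normalized CPM in the mock libraries and at 267.8, 267.4 and 271.0 in the treated libraries. The treated values were close together and lay inside the mock range. The log2 fold change was 0.07 (SE 0.07, edgeR adjusted p = 0.595), and its 95% interval ran from 0.946-fold to 1.17-fold, which leaves out the estimated fold of CER1 or CER3. The 95% interval of CER3, 1.14-fold to 1.39-fold, overlaps that of KCS6, and the interval of CER1, 1.251-fold to 1.565-fold, does not.

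CER10 (chr3:20520930-20523098, minus strand), the enoyl-CoA reductase that completes each elongation cycle, stood at 51.5, 62.4 and 61.8 normalized CPM in the mock libraries and at 67.2, 53.1 and 65.3 in the treated libraries. The groups overlapped, with 1 low library in each, and the log2 fold change was 0.08 (SE 0.10, 95% interval -0.14 to 0.30, edgeR adjusted p = 0.707). CER2 (chr4:12660687-12662656, plus strand), a BAHD-type protein needed for the last elongation steps, stood at 27.4, 31.2 and 31.7 in the mock libraries and at 29.0, 29.0 and 33.9 in the treated libraries. Its log2 fold change was 0.02 (SE 0.09, 95% interval -0.18 to 0.22, edgeR adjusted p = 0.926). From start to end, the span of CER2 overlaps the spans of 2 antisense genes, by 412 bases summed over both. The span of CER10 overlaps that of 1 antisense gene over 27 bases. Overlap between exons was not computed. The sources used here do not give the strand setting of the counting, so reads of these genes and their antisense partners may be mixed. No 50-base window of the exons of any of the 9 genes occurred elsewhere in the nuclear genome.

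Both genes of the alkane branch rose. CER1 (chr1:418416-422579, plus strand), which forms alkanes, stood at 33.5, 34.6 and 37.3 normalized CPM in the mock libraries and at 49.7, 46.6 and 51.5 in the treated libraries. The groups were well apart, with means of 35.1 ± 1.92 and 49.3 ± 2.45 (SD, n = 3). The log2 fold change was 0.49 (SE 0.07, 95% interval 0.32 to 0.65, edgeR adjusted p = 0.0015), the smallest p of the 9 genes. Each of the 17 alternatives, including each library left out, kept the adjusted p of CER1 at 0.0125 or below.

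CER3 (chr5:23420184-23424117, plus strand), the partner of CER1 that supplies its aldehyde intermediate, stood at 68.7, 64.2 and 66.5 normalized CPM in the mock libraries and at 83.8, 86.6 and 80.4 in the treated libraries. Again every treated library lay above every mock library, and the mean went from 66.5 ± 2.28 to 83.6 ± 3.14 (SD, n = 3). The log2 fold change was 0.33 (SE 0.07, edgeR adjusted p = 0.00819). The call ended only without mock library 2, where the adjusted p was 0.0502.

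Both genes of the alcohol branch were scarce in whole seedlings. CER4 (chr4:16204096-16207956, minus strand), the fatty acyl-CoA reductase that makes primary alcohols, had 17, 13 and 34 reads in the mock libraries and 62, 49 and 35 in the treated libraries. These are 1.55, 1.07 and 1.70 normalized CPM against 2.81, 3.15 and 1.74, so treated library 3 lay just above the highest mock library and the other treated libraries well above it. The log2 fold change was 0.78 (SE 0.28, edgeR adjusted p = 0.104). Without treated library 3 the adjusted p was 0.0322, and edgeR's exact and likelihood ratio tests gave 0.0378 and 0.0394 with all libraries.

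WSD1 (chr5:14767426-14770396, plus strand), the wax ester synthase that joins primary alcohols to fatty acids, had 14, 9 and 9 reads in the mock libraries and 44, 27 and 41 in the treated libraries. In normalized CPM these were 1.28, 0.740 and 0.450 against 2.00, 1.73 and 2.04. The groups did not overlap, although mock library 1 stood nearer to the treated libraries than the other mock libraries did. The mean rose from 0.822 ± 0.419 to 1.92 ± 0.164 (SD, n = 3), a log2 fold change of 1.35 (SE 0.32, 95% interval 0.66 to 2.05, edgeR adjusted p = 0.0196), the largest of the 9 genes. The adjusted p was 0.0752 without mock library 2, 0.128 without mock library 3, 0.07 without treated library 1 and 0.0534 without treated library 3. When all libraries were thinned to the same total in a single random draw, the log2 fold change was 0.91 and the edgeR adjusted p 0.192. The spread between draws was not tested.

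**Figure D2:**
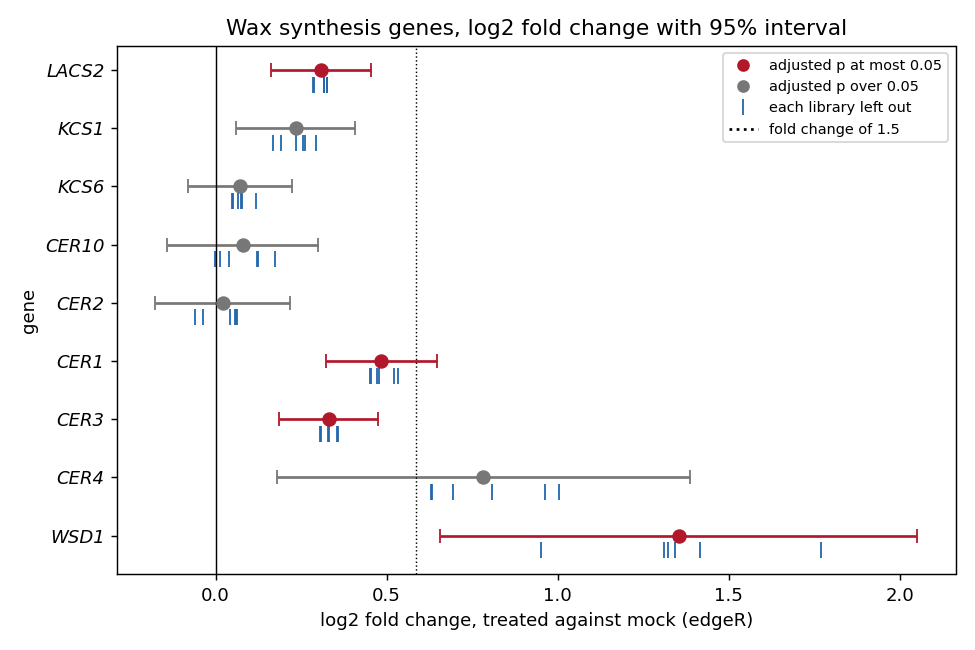
Log2 fold change of each gene, treated against mock (horizontal axis), with its 95% interval, and the value with each library left out (short ticks). CER1, CER3, LACS2 and WSD1 passed the adjusted p of 0.05. The intervals of CER1 and CER4 cross the dotted line at a fold change of 1.5, and that of WSD1 lies beyond it.

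Per kilobase of exon, the levels of the 9 genes spanned a range from KCS6 to WSD1 and stood in the same order in both groups. The exon length counts every base that is exon in any annotated transcript. CER1 has 5 transcripts and 3593 such bases, whereas CER2, CER3, KCS1 and CER10 have 1 transcript each. The order between genes therefore depends in part on the annotation. In the mock libraries KCS6 stood at 97.9 ± 5.39 normalized CPM per kb (SD, n = 3), followed by CER10 at 40.9 ± 4.27, KCS1 at 32.3 ± 1.82 and CER3 at 25.7 ± 0.880. CER2 followed at 18.5 ± 1.43, then LACS2 at 13.2 ± 0.354 and CER1 at 9.77 ± 0.535. CER4 at 0.736 ± 0.168 and WSD1 at 0.399 ± 0.204 were far below the rest, and these were the 2 neighbours in the order whose mock libraries overlapped. In the treated libraries the same scale gave 102.9 ± 0.753 for KCS6, 32.3 ± 1.21 for CER3, 16.4 ± 0.474 for LACS2, 13.7 ± 0.683 for CER1 and 0.933 ± 0.0794 for WSD1. There the libraries of CER10 and KCS1 overlapped, as did those of CER4 and WSD1.

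**Figure D3:**
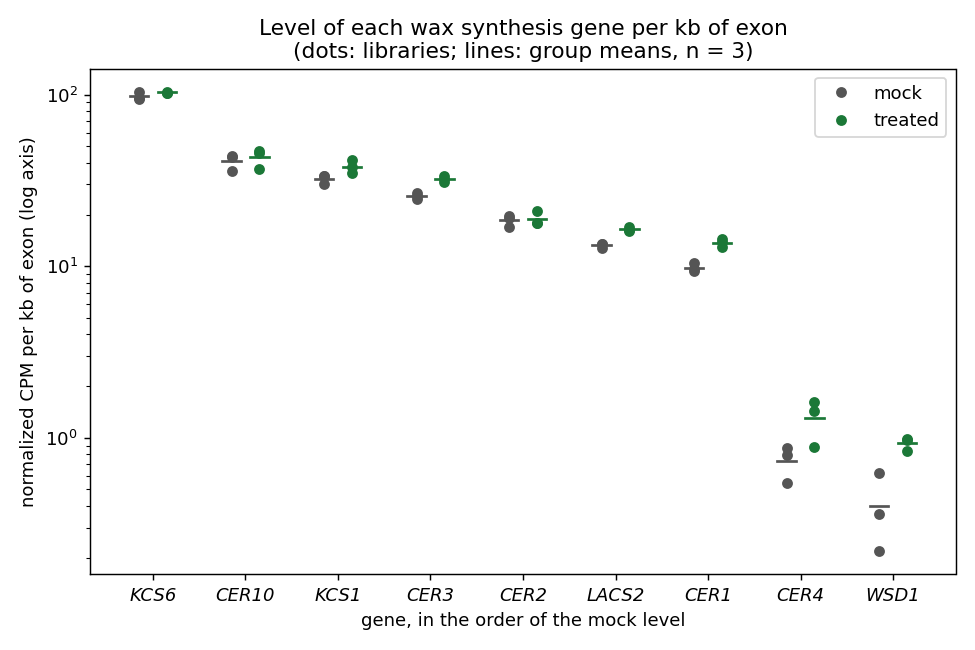
Normalized CPM per kb of exon on a log axis for each gene and library, with lines at the group means (n = 3), in the order of the mock level. KCS6 stands at 97.9 in the mock libraries, and CER4 and WSD1 lie below the other 7 genes in both groups.

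Ratios of 2 genes within a library do not depend on how libraries are scaled to each other. CER1 stood at 0.135, 0.127 and 0.151 of the KCS6 level (in normalized CPM) in the mock libraries and at 0.186, 0.174 and 0.190 in the treated libraries, without overlap, a difference of the mean log2 ratio of 0.42. The ratios of CER3, LACS2 and WSD1 to KCS6 were also higher in every treated library than in every mock library, by 0.26, 0.24 and 1.28 on the log2 scale. The ratio of CER1 to CER3 differed by 0.16 on the log2 scale and that of WSD1 to CER1 by 0.86, both with overlap. The exact two-sided permutation test of each of the 4 ratios without overlap gave p = 0.1, the smallest that 3 against 3 libraries allow, and 0.188 after adjustment over the 15 ratios computed. WSD1 entered the table through its treated libraries, so its ratios are a description only.

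Among 7 marker genes of the shoot epidermis, the cell layer where wax is made, 7 of 7 had a log2 fold change above 0, with a median of 0.28, against 9604 of 19615 genes tested above 0, and 2 passed the adjusted p in the higher direction, against 5.10% of all genes: PDF2, a homeodomain factor of epidermal identity (log2 fold change 0.29, edgeR adjusted p = 0.0142), and FDH (0.25, 0.0444), a ketoacyl-CoA synthase also named KCS10. PDF2 lost its call without mock library 2 or mock library 3, and FDH lost it without any 1 of the 6 libraries. The summed level of the 7 markers ranged from 523.1 to 564.9 normalized CPM in the mock libraries and from 654.1 to 657.9 in the treated libraries, without overlap. FDH, itself a ketoacyl-CoA synthase, had the largest level of the 7 markers, with means of 211.1 in the mock and 250.4 in the treated libraries. The sum is therefore partly the level of a lipid gene and not a measure of epidermal cells alone. The share of epidermal cells in the seedlings was not measured.

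Set against that sum, CER1 was also higher in every treated library, at 6.41%, 6.12% and 6.67% of the epidermal marker sum in the mock libraries and 7.60%, 7.09% and 7.86% in the treated libraries. WSD1 was also higher relative to the sum in every treated library, by 1.09 on the log2 scale. CER3 and LACS2 overlapped between the groups on this scale, with log2 differences of 0.07 and 0.05, and CER4, KCS1 and CER10 overlapped as well. KCS6 stood at 47.4%, 48.1% and 44.2% of the sum in the mock libraries and at 41.0%, 40.7% and 41.4% in the treated libraries, and CER2 was likewise lower relative to the sum in every treated library, by a log2 difference of -0.23. The exact two-sided p was 0.1, the smallest possible, for CER1, WSD1, KCS6 and CER2, and 0.188 after adjustment over the 15 ratios. As WSD1 entered the table through its treated libraries, its value here is a description only.

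**Figure D4:**
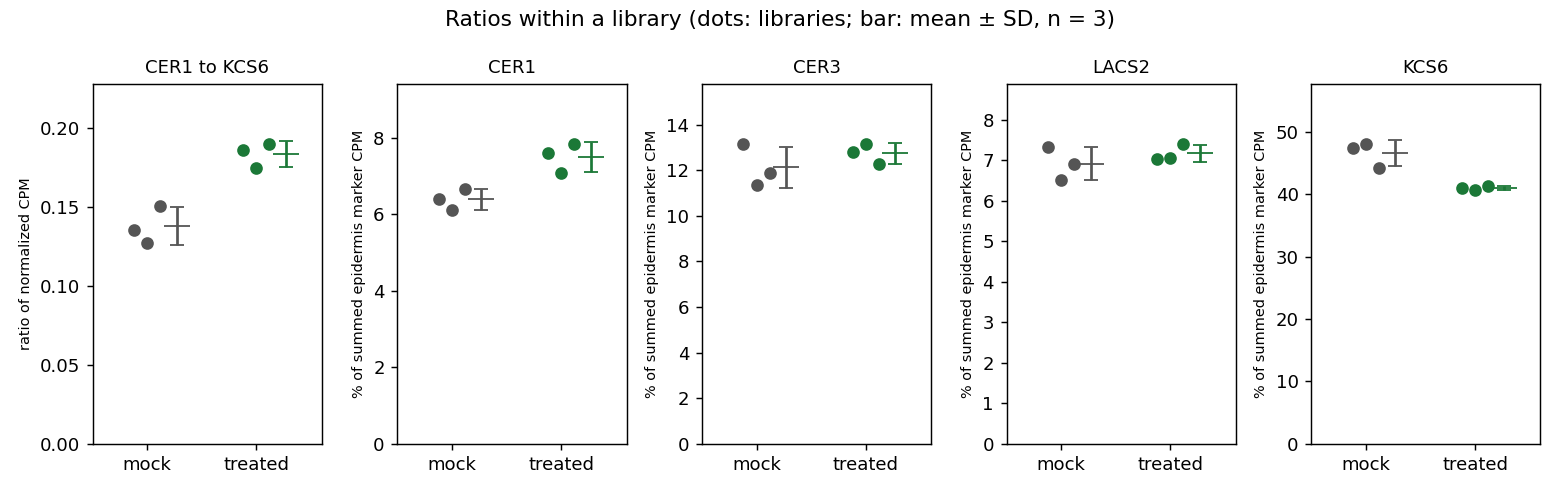
The ratio of CER1 to KCS6, and CER1, CER3, LACS2 and KCS6 as a percentage of the summed normalized CPM of 7 shoot epidermis markers, in each library (vertical axes from 0), with the mean and SD (n = 3). CER1 is higher in every treated library on both scales, CER3 and LACS2 overlap, and KCS6 is lower relative to the epidermal markers.

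The calls in the 3 marker lists below stand beside 5.10% higher and 4.52% lower over all genes tested. The summed level of 6 guard cell markers was 71.2 to 77.3 normalized CPM in the mock libraries and 67.0 to 71.9 in the treated libraries. Of these, 1 passed, SLAC1, an anion channel of guard cells, which was lower (log2 fold change -0.53, edgeR adjusted p = 0.0487). Its call was lost without any 1 of the 6 libraries. The sum of 7 leaf photosynthesis markers overlapped between the groups, at 24900 to 30890 and 26510 to 35660, and the list was mixed, with 4 of 7 log2 fold changes above 0, 3 below 0 and a median of 0.07. CA1, a carbonic anhydrase, was the 1 member of that list to pass and rose (0.55, edgeR adjusted p = 0.00113). Every treated library lay above every mock library for 3 of the 7, CA1, RCA (0.35, edgeR adjusted p = 0.0516) and GAPA (0.17, 0.222). The reverse held for 1, LHCA1, a light-harvesting protein of photosystem I (-0.18, edgeR adjusted p = 0.238). RCA, GAPA and LHCA1 were chosen after their values were seen. Of 15 root markers, 10 were analysed, and their sum was 78.0 to 80.7 in the mock and 80.4 to 84.6 in the treated libraries. SCR, a factor of the root endodermis, and COBL9, a root hair gene, rose within that list (0.31, edgeR adjusted p = 0.0364, and 0.78, 0.0295), and both lost the call without any 1 of the 3 mock libraries, treated library 1 or treated library 3. The lowest count of any marker analysed was 13775 for leaf photosynthesis, 49 for the epidermis, 40 for guard cells and 17 for the root, so no marker analysed was at 0. The part of tissue composition in the values of the wax genes was not tested beyond the ratios to the epidermal sum.

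Of 15 further wax synthesis genes, 13 were analysed, 3 rose, 0 were lower (0 also at an unadjusted p under 0.05), and 12 of the 13 had a log2 fold change above 0, with a median of 0.23. Over all genes tested, 5.10% rose and 4.52% fell at the adjusted p. Of these 19615 genes, 2202 were lower at an unadjusted p under 0.05 and 9604 had a log2 fold change above 0. KCS9, a condensing enzyme, rose from 103.4 ± 4.19 to 137.0 ± 5.24 normalized CPM (SD, n = 3), with a log2 fold change of 0.41 (edgeR adjusted p = 0.00276). KCS16, of the same family, went from 15.9 ± 0.802 to 21.9 ± 0.986, with a log2 fold change of 0.47 (edgeR adjusted p = 0.00517). ACC1, the cytosolic acetyl-CoA carboxylase that supplies malonyl-CoA for elongation, rose from 189.4 ± 14.5 to 230.3 ± 11.1, with a log2 fold change of 0.28 (edgeR adjusted p = 0.0413). KCS9 and KCS16 passed in all 17 alternatives, whereas ACC1 lost its call without any 1 of the 3 mock libraries, treated library 1 or treated library 3.

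The families of the 9 genes were not uniform. Of 21 KCS genes, 15 were analysed, of which 4 rose and 1 fell at the adjusted p. The families are small, and the counts in them stand beside 5.10% higher and 4.52% lower over all genes tested. Besides KCS9, KCS16 and KCS10 (FDH), KCS19 rose from 31.4 ± 0.919 to 47.7 ± 6.36 normalized CPM (SD, n = 3; log2 fold change 0.60, edgeR adjusted p = 0.00182), and KCS12 fell from 68.1 ± 7.76 to 42.3 ± 6.72 (-0.69, 0.00248). KCS19 and KCS12 also passed the fold limit of 1.5. Of 11 wax ester synthase genes, 6 were analysed and 2 rose, WSD1, whose call is set aside as above, and AT2G38995. The mean of AT2G38995 was 7.23 normalized CPM in the mock and 9.77 in the treated libraries (0.45, edgeR adjusted p = 0.0459). Its call was lost without mock library 2, mock library 3 or any 1 of the 3 treated libraries. Of 9 long-chain acyl-CoA synthetases, 8 were analysed and 2 rose, LACS2 and LACS3 (0.31, edgeR adjusted p = 0.0346), the latter not without mock library 2, mock library 3, treated library 1 or treated library 2. Of 8 fatty acyl-CoA reductases, 4 were analysed and 0 passed, with 3 at an unadjusted p under 0.05, CER4 and FAR5 with higher and FAR1 with lower treated means. At that unadjusted p, 2369 of all 19615 genes tested were higher and 2202 lower.

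Of 4 wax export genes, 1 rose at the adjusted p, against 5.10% of all genes tested. This was ABCG11, a transporter of wax and cutin lipids, which went from 73.3 ± 6.54 to 91.9 ± 5.74 normalized CPM (SD, n = 3; log2 fold change 0.33, edgeR adjusted p = 0.0256). The call of ABCG11 was lost without mock library 1, mock library 3, treated library 1 or treated library 3. CER5, its transport partner, had a log2 fold change of 0.18 (edgeR adjusted p = 0.252), and the lipid transfer proteins LTPG1 and LTPG2 had 0.22 and 0.15.

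Of 13 wax regulators, 10 were analysed and 0 passed the adjusted p by edgeR's quasi-likelihood test, with a median log2 fold change of -0.04. Over all genes tested, 5.10% were called higher and 4.52% lower, so 0 of 10 is near those shares. MYB96, an activator of wax synthesis under drought, had the smallest p. It stood at 31.2, 27.5 and 26.0 normalized CPM in the mock libraries and at 19.8, 26.3 and 17.1 in the treated libraries, so treated library 2 lay inside the mock range. Its log2 fold change was -0.42 (SE 0.14, edgeR adjusted p = 0.0769), and it was the 1 regulator under an unadjusted p of 0.05. At that unadjusted p, 2369 of all 19615 genes tested were higher and 2202 lower. The exact test, the likelihood ratio test and the fit without treated library 2 each called 1 regulator lower. Its relative MYB94 had a log2 fold change of 0.22, and DEWAX, a repressor of wax genes, had 0.10, both with overlapping groups (chosen after their values were seen).

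Genes of the cutin polyester, which shares the epidermis and part of the acyl-CoA supply with wax, had a median log2 fold change of 0.26. Of 16 genes analysed, 16 had a log2 fold change above 0, against 9604 of 19615 over all genes tested. At the adjusted p 1 of the 16 passed, a share near the 5.10% of all genes called higher. This was HTH, an oxidoreductase of cutin monomers, which rose from 56.5 ± 6.65 to 77.1 ± 10.04 normalized CPM (SD, n = 3; log2 fold change 0.45, edgeR adjusted p = 0.0208) and lost its call without mock library 1, mock library 3, treated library 1 or treated library 3. For suberin, the related polyester of roots, 13 of 14 genes were analysed and 0 passed the edgeR test, with a median of 0.12. Over all genes tested, 5.10% were called higher and 4.52% lower. FAR5 had the smallest p of that list (0.27, edgeR adjusted p = 0.197), and it and FAR1 (-0.20, edgeR adjusted p = 0.21), which differed in the opposite direction, were the 2 genes at an unadjusted p under 0.05. At that unadjusted p, 2369 of all 19615 genes tested were higher and 2202 lower.

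Abscisic acid, a hormone of drought, induces many wax genes, so 10 genes of its response were listed too. At the adjusted p, 4 rose and 1 fell, against 5.10% and 4.52% of all genes tested, with a median log2 fold change of 0.30. RD20, a caleosin, rose from 24.8 ± 0.518 to 40.9 ± 1.77 normalized CPM (SD, n = 3; log2 fold change 0.72, edgeR adjusted p = 9.6e-05), and HAI1 (0.74, 0.0185) and HAB1 (0.31, 0.0188), phosphatases that restrain the hormone's signal, and RD29A (0.28, 0.0294) rose as well. NCED3, the rate-limiting enzyme of abscisic acid synthesis under drought, fell from 7.28 ± 1.96 to 3.54 ± 0.263 (-1.03, edgeR adjusted p = 0.00491). RD20 and NCED3 passed in all 17 alternatives. HAI1 lost its call without mock library 1, mock library 3 or treated library 3, HAB1 without mock library 2, mock library 3 or treated library 1, and RD29A without any 1 of the 3 mock libraries or treated library 3.

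**Figure D5:**
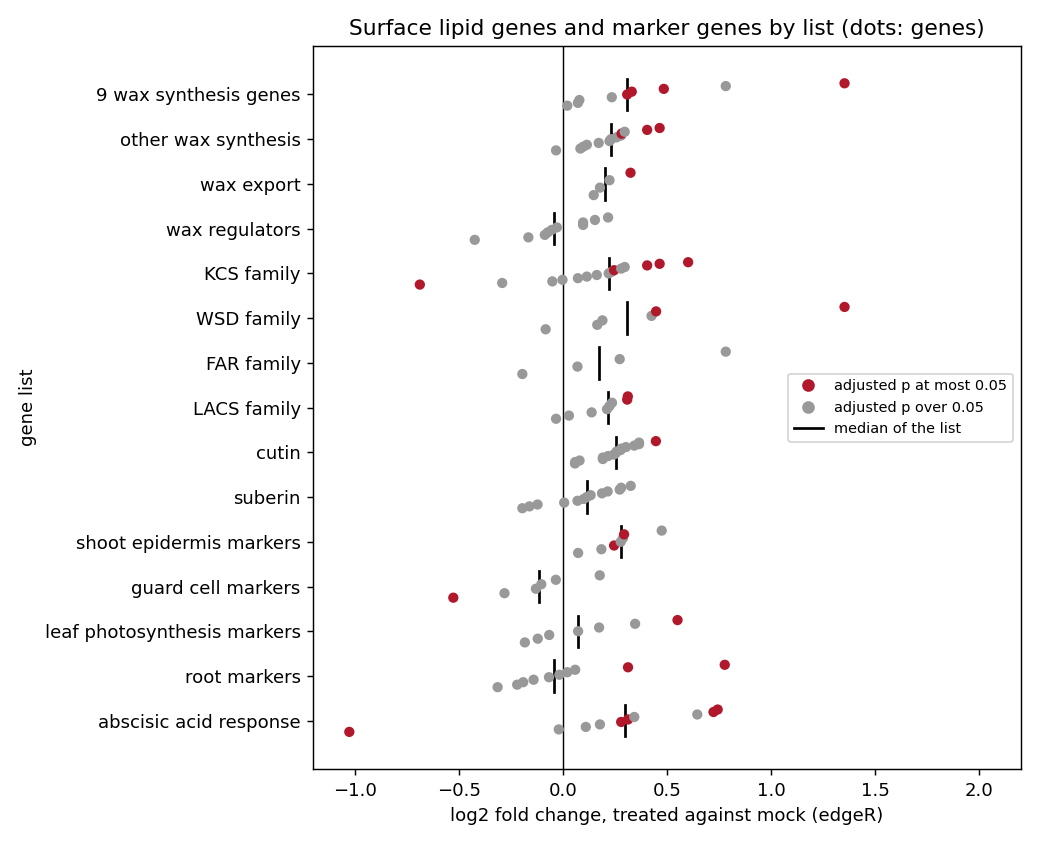
Log2 fold change, treated against mock (horizontal axis), of each gene analysed in the 9 wax synthesis genes and in 14 other lists (rows), with a bar at the median of each list. The median of the wax synthesis genes is 0.31 and that of the wax regulators is -0.04. Some genes stand in more than 1 list, such as WSD1, LACS2 and KCS10.

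Over the 6 libraries, the genes whose log2 normalized CPM followed CER1 most closely, among 18184 genes, were AT2G46730 (Pearson r = 0.9992), BMY3 (AT5G18670, r = 0.9974), annotated as a beta-amylase, and ATDUF1 (AT1G03300, r = 0.9969). Their log2 fold changes were 0.21, 0.57 and 0.52, with edgeR adjusted p of 0.547, 0.00032 and 0.0173. The 6 values share the 2 groups and the library depths, and the 3 genes were picked as the closest of many, so the correlations are a description.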

How the data were processed

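RNA-Seq libraries came from 3 mock and 3 treated samples of whole seedlings, which the study calls biological replicates. The labels do not say whether each came from separate pots, so p-values measure the spread between these libraries. After trimming (Trimmomatic 0.36) and alignment to the TAIR10 genome (HISAT2 2.1.0), the authors deposited whole-number HTSeq counts per gene. The authors also deposited CPM, which is each count scaled by the total of its library. The log2 fold changes, average log2 CPM, p-values and FDR that the authors deposited from their own edgeR comparison were not used. The sources used here do not say whether counting was stranded, and the labels name both a TruSeq and a directional NEBNext library kit.

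Counts were tested in R 4.3.3 with edgeR 4.0.16 (filterByExpr, TMM factors, quasi-likelihood test, no covariate), with Benjamini-Hochberg adjustment over 19615 genes and limits of an adjusted p of 0.05 and a fold of 1.5. Normalized CPM are CPM after TMM scaling, and log2 fold changes are treated against mock. Intervals are 95% intervals of the fit. The procedure was tested on simulated data. Alternatives were DESeq2 1.42.0 and its size factors, upper quartile and library size scaling, other filters, other tests (exact, likelihood ratio, limma-voom in limma 3.58.1), thinning to 10804936 counts, a replicate block and each library left out. Exon lengths, positions and promoters came from RefSeq TAIR10.1, and names from the same annotation. Figures were drawn with matplotlib 3.10.9.

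The 9 genes and the 14 other lists (138 further loci, 111 of them analysed, the others not analysed here) were chosen with earlier results of these data known. Named were all 9 genes, in each list the genes past the adjusted p (4 with the smallest p where more passed) or else the 1 with the smallest p, and the 3 genes whose pattern was most like that of CER1, at an average log2 CPM of at least 1. Other genes were named after their values were seen.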

Additional observations from a re-analysis of the deposited data

How the results depend on the processing

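CER1 passed the adjusted p in all 17 alternatives (log2 fold change 0.45 to 0.53), CER3 in 16, LACS2 in 13 and WSD1 in 11 (0.91 to 1.77). By both limits, 1 of the 9 genes was called higher in the reported test. The number was 2 with edgeR's exact test and 2 with its likelihood ratio test (CER4 was added). It was 0 with the replicate block, 0 after thinning and 0 to 1 with a library left out. That 1 gene was WSD1 without mock library 1 or treated library 2, and CER4 without treated library 3. The number past the adjusted p alone, 4 in the reported test, was 2 with the replicate block (CER1 and CER3), 3 after thinning, 5 with the exact test, 5 with the likelihood ratio test and 1 to 5 with a library left out, and was 1 (CER1) without mock library 2. No alternative called any of the 9 genes lower. The sign of 2 genes near 0 changed with a library left out. CER2 ranged from -0.06 to 0.064, at -0.04 without mock library 1 and -0.06 without treated library 3, and CER10 ranged from -0.002 to 0.17, at -0.002 without mock library 1. The cause was not tested.

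Libraries with the same number deviated from their group means with correlations of -0.159, -0.248 and 0.126. These values were not compared with those of libraries with different numbers, so they do not decide whether the numbers pair the libraries. With the replicate block, 593 of all genes were higher and 522 lower at the adjusted p, against 1001 and 887 without it, and the adjusted p was 0.0538 for WSD1 and 0.0523 for LACS2. The exact test called 1277 genes higher and 1160 lower, the likelihood ratio test 1314 and 1207, and leaving out a library 515 to 983 and 485 to 927. Of the fold changes of single genes under the alternatives, 135 of the 9 genes' values kept direction and call. Another 11 lost the call, 4 gained it and 3 reversed. Among the list genes, only those past the adjusted p in the reported test were followed, so none could gain a call. Of their values, 256 kept both direction and call and 84 lost the call. WSD1 had 9 to 44 reads per library, so its values carry a large counting error.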
